A study of Mus musculus with 4 samples.

Results

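The 10 genes described here encode the apolipoproteins and the lipid-loading protein with which hepatocytes build lipoprotein particles: Apoa1, Apoa2, Apoa4, Apoa5, Apob, Apoc1, Apoc2, Apoc3, Apoe and Mttp. They were taken by name from the gene column of the array, with no rule on their measured values. Earlier results of these data were known when the genes were chosen. They had 18 probes, of which 17 were well above background on all 4 arrays and 1, for Mttp, on none. All 10 genes were therefore measured in every group, among 20615 genes with a probe above background on at least 1 array.

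Hepatocytes export triglyceride in very low-density lipoprotein (VLDL). Microsomal triglyceride transfer protein, the product of Mttp, loads lipid onto apolipoprotein B in the endoplasmic reticulum, and the particle then matures through the secretory pathway. Apolipoproteins A-I and A-II are the main proteins of high-density lipoprotein (HDL), while the small C apolipoproteins and apolipoprotein E exchange between particles and govern their lipolysis and their uptake by receptors.

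The samples were primary hepatocytes of C57BL/6 mice, cultured on collagen and harvested 24 h after seeding, and each group had 1 array. Control cells were named wild-type in the sample labels, and the study's methods describe the controls as Drp1flox/flox littermates. Drp1LiKO cells, named knockout in the labels, came from mice with the same floxed allele and Cre under the albumin promoter. The allele targets Drp1, the dynamin-related GTPase of mitochondrial fission encoded by Dnm1l. The arrays do not measure its protein. Cells of each genotype were left untreated or received 200 μM palmitate, a saturated fatty acid. The labels give neither the age of the animals nor the number of animals behind an array, nor how long palmitate was applied. According to its label, the untreated control array has been deposited a second time, in a different series.

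Values are log2 intensities after subtraction of the array's 75th percentile, so a difference of 1 log2 unit is a 2-fold difference. Since no group had a replicate array, the spread between cultures was not measured. Technical errors are given instead, the scanner software's own error, which came to 0.204 log2 units for a difference between bright probes, and the median standard deviation of repeated spots within an array, 0.0337 to 0.0379 log2 units. Between 44.7% and 51.1% of the probes were well above background on each array. Both untreated arrays lay on slide 1 and both palmitate arrays on slide 2, so palmitate and slide cannot be told apart. Each genotype comparison was made within a slide, but genotype and cell preparation cannot be told apart. Dnm1l, the targeted gene, had levels of 2.44 and 2.44 in the untreated and palmitate control arrays and 1.09 and 1.02 in the Drp1LiKO arrays, in the direction its labels imply.

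The cell type was checked with marker lists. Of 13 hepatocyte markers measured, 12 were above background on all 4 arrays, and their summed level, in multiples of the array's 75th percentile, was 1930 in the untreated control, 1912 in the untreated Drp1LiKO, 1881 in the palmitate control and 1949 in the palmitate Drp1LiKO array. In the same order, 11 macrophage markers summed to 9.80, 37.5, 12.3 and 34.8, with Timd4 and Cd163 not above background. The 8 endothelial markers summed to 0.849, 3.35, 0.756 and 1.93, and 7 stellate cell markers to 1.08, 11.1, 1.23 and 13.3, with Des not above background. The 4 cholangiocyte markers measured summed to 61.2, 42.2, 57.6 and 44.0, with Epcam not above background. The sums for macrophages, endothelial cells and stellate cells were thus higher in both Drp1LiKO arrays. Above background on all 4 arrays were 6 of 11 macrophage, 4 of 8 endothelial and 3 of 7 stellate markers. Their median genotype differences were 2.26, 2.11 and 3.02 log2 units without palmitate and 1.65, 1.65 and 2.44 with it. With palmitate Vsig4, Clec4g, Tek and Lrat were lower, at -0.35, -0.24, -2.36 and -0.36, on probes not above background on all arrays. The hepatocyte sum rests mostly on its brightest genes. Over single hepatocyte markers the median genotype difference was 0.43 log2 units without palmitate and 0.49 with it. At least 0.5 higher were 4 of 12 without palmitate and 6 of 13 with it, against 17.4% and 14.8% of all genes. None was that much lower, though Trf, Fgb, Ambp and Hpx lay below 0 in both. The part of these cell types in the results below was not tested. In RNA from whole cultures, fewer cells of a type and less RNA per cell cannot be told apart.

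The 3 members with the largest mean genotype differences were Apoa4, Apoc2 and Mttp, and an oligonucleotide that measured each is shown as printed on the array, because a level is the signal of such a sequence. For Apoa4 and Mttp it is the probe behind every value below. For Apoc2 it is the second, dimmer probe of the gene, and the brightest one, from which the counts and fits were taken, is not shown. The Apoa4 probe lies at chr9:46051206-46051266 on the plus strand, the Apoc2 probe at chr7:20258597-20258656 on the minus strand and the Mttp probe at chr3:137753868-137753927 on the minus strand (mm9, the build of the array annotation). The whole of each 60-base oligonucleotide is the detecting part, so none is in capitals.
Apoa4: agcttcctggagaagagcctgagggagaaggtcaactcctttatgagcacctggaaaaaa
Apoc2: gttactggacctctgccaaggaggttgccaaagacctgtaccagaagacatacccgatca
Mttp: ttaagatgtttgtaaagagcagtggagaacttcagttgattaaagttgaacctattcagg

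The 250 bases before the annotated start of the same 3 genes are shown next, since these members differed most. The sequences are those of RefSeq on GRCm38.p6, a later build than that of the array, at chr9:46240594-46240843 on the plus strand for Apoa4, chr7:19677942-19678191 on the minus strand for Apoc2 and chr3:138143419-138143668 on the minus strand for Mttp. Capitals mark matches, on either strand, to 3 motifs: CAAAGTCCA, a motif bound by hepatocyte nuclear factor 4, AGGTCA, the core element of many nuclear receptors, and the TATA motif TATAAA. The 3 motifs do not overlap in the printed windows.
Apoa4: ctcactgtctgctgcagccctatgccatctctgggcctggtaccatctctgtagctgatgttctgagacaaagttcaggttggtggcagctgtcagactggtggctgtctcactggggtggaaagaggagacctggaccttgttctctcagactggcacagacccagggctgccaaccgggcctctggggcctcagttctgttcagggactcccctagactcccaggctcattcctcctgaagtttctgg
Apoc2: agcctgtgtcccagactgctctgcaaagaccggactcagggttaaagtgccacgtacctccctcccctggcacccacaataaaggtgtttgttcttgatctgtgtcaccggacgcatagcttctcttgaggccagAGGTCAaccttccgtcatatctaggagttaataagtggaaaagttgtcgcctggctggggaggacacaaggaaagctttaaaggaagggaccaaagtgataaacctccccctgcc
Mttp: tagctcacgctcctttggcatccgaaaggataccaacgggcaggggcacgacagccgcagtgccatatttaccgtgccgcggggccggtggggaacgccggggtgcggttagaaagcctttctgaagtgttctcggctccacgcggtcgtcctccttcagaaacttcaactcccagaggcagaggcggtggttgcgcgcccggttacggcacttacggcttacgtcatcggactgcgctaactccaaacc

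Of these 3 windows, that of Apoc2 held 1 match, to AGGTCA, and those of Apoa4 and Mttp held none, which says only that these letters are not there. Over all 32851 RefSeq promoter windows of this length, 0.384% held CAAAGTCCA, 14% AGGTCA and 12.4% TATAAA. In all, 8 of the 10 members had a window in the table, Apoc1 and Apoc3 having none. No member window held CAAAGTCCA, Apoa2 and Apoc2 had AGGTCA, and Apoa2, Apoa5, Apob and Apoe had TATAAA. The second Mttp probe, the one that was not above background on any array, matched the RefSeq Mttp window itself, from base -37 to base 22 around the annotated start. Most of that probe lies before the annotated start, so its lack of signal says little about transcripts that begin there.

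**Figure D1:**
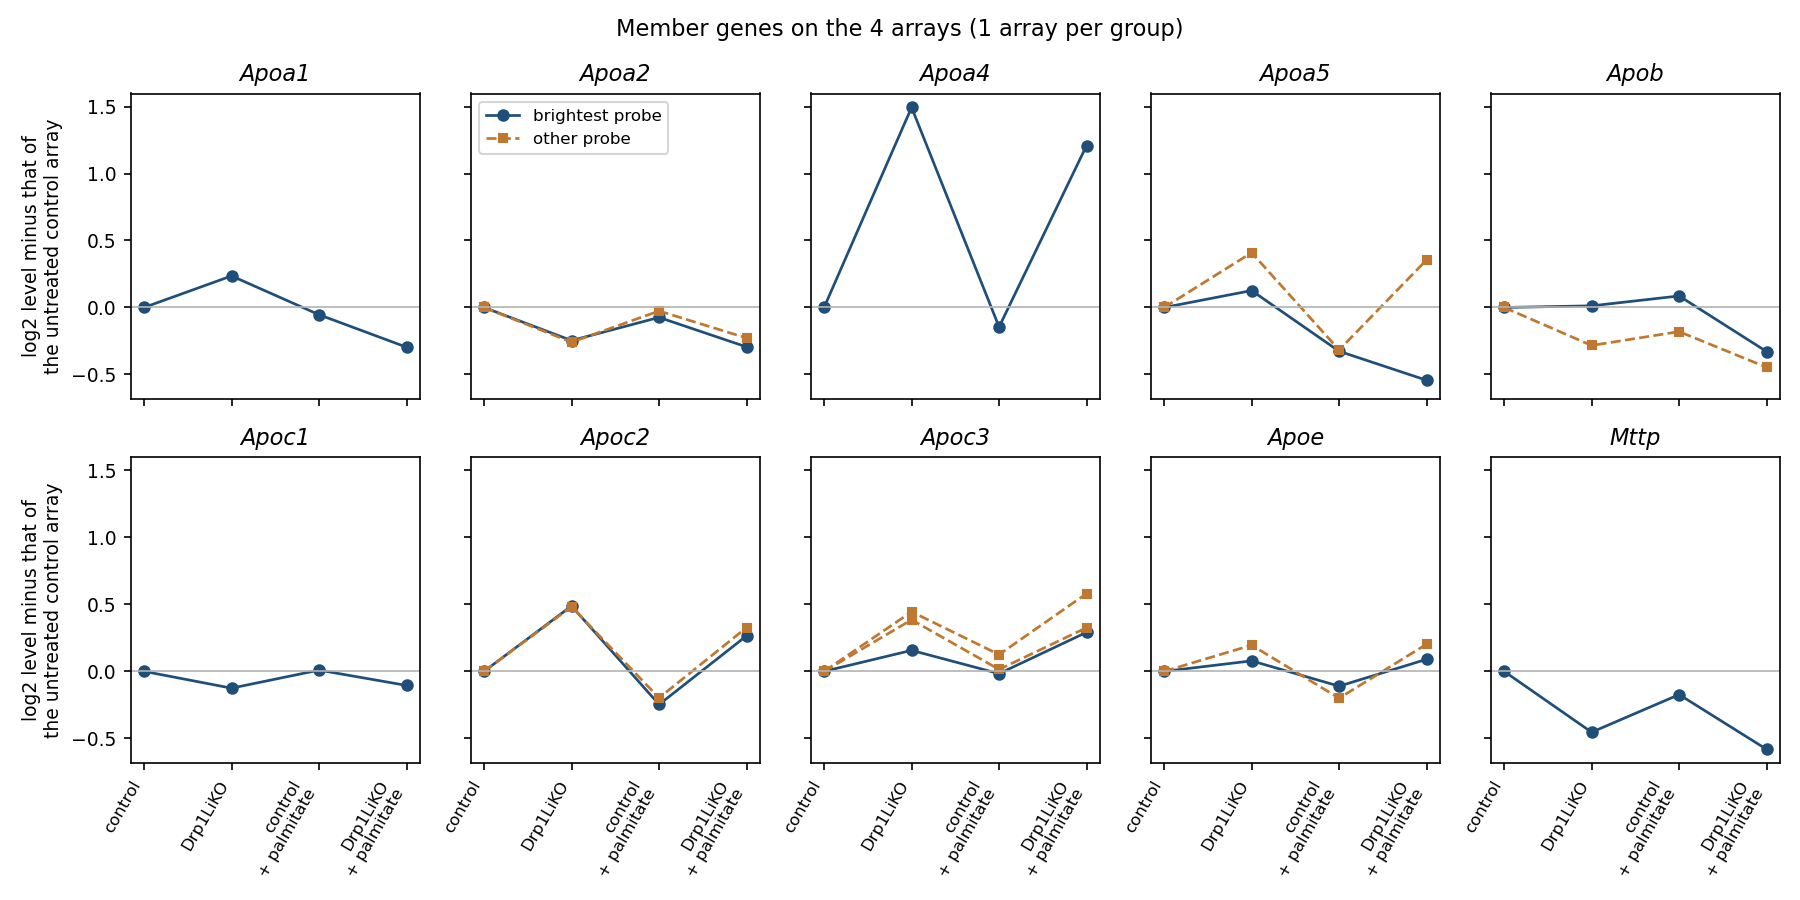
Log2 level of each member on the 4 arrays, as the difference from the untreated control array, with 1 panel per gene and 1 point per array, lines joining the points of a probe. Blue circles are the brightest probe of the gene and orange squares its other probes. Apoa4 stands at 1.49 in the untreated Drp1LiKO array, while the brightest probes of the other members stay within 0.67 log2 units over all 4 arrays, except that of Apoc2, which spans 0.74.

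Apoa4 encodes apolipoprotein A-IV, a lipid-responsive apolipoprotein of triglyceride-rich particles and HDL. Its level was 3.88 in the untreated control, 5.38 in the untreated Drp1LiKO, 3.74 in the palmitate control and 5.09 in the palmitate Drp1LiKO array. Both Drp1LiKO arrays lay above both control arrays. The genotype difference was 1.49 log2 units without palmitate, a 2.82-fold difference, and 1.35 with palmitate, a 2.56-fold difference. Each was several times the scanner error of 0.204. Over 9 other ways of scaling, filtering or combining probes, the untreated difference ranged from 1.31 to 1.55 and that with palmitate from 1.20 to 1.38. Those that filter or combine probes could not move these values, since Apoa4 had no other probe. In size, 8.88% of the genes tested differed more than Apoa4 without palmitate and 7.88% with palmitate.

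Apoc2 encodes the cofactor that lipoprotein lipase needs to hydrolyse triglyceride. Its brightest probe read 4.68, 5.17, 4.43 and 4.95, in the order untreated control, untreated Drp1LiKO, palmitate control and palmitate Drp1LiKO. This probe was 0.49 log2 units higher in Drp1LiKO cells without palmitate and 0.51 higher with it. The second probe, whose sequence is given above, read 3.08, 3.57, 2.89 and 3.41. It gave differences of 0.48 and 0.53, so that the 2 probes lay 0.0062 and 0.0126 log2 units apart. On both probes the Drp1LiKO arrays lay above both control arrays. Over the other settings the brightest probe's difference ranged from 0.31 to 0.53 without palmitate and from 0.36 to 0.54 with it, the lowest values being those of scaling to the median.

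Apoc3 encodes an inhibitor of lipoprotein lipase and of the clearance of remnant particles. Its brightest probe read 6.92, 7.08, 6.91 and 7.22 in that order, with genotype differences of 0.16 and 0.31 log2 units. A second probe differed by 0.38 and 0.31. The third, a dim probe for another transcript of the gene, differed by 0.44 and 0.46. All 3 probes were higher in Drp1LiKO in both conditions, and the lowest of these values, 0.16, was under the scanner error. With the arrays scaled to their median, the untreated difference of the brightest probe was -0.03.

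Apoe encodes the ligand by which remnant particles reach hepatic receptors, and macrophages also express it. Its brightest probe read 8.65, 8.73, 8.54 and 8.74, and its differences of 0.08 and 0.20 log2 units were within the scanner error. The other probe differed by 0.20 and 0.40. Both probes were higher in Drp1LiKO in both conditions, but scaling to the median gave -0.10 for the brightest probe without palmitate. Summed macrophage markers, with levels given above, were also higher in both Drp1LiKO arrays. Their part in the Apoe values was not tested.

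Mttp, the gene of the lipid-loading step, differed the other way. Its probe read 2.35 in the untreated control, 1.90 in the untreated Drp1LiKO, 2.18 in the palmitate control and 1.77 in the palmitate Drp1LiKO array. Both Drp1LiKO arrays lay below both control arrays. The genotype difference was -0.45 log2 units without palmitate, so that the control was 1.37-fold higher, and -0.41 with palmitate, where the control was 1.33-fold higher. Under the other settings the untreated difference stayed between -0.64 and -0.43 and that with palmitate between -0.57 and -0.39.

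Apob, the structural protein of VLDL on which Mttp acts, read 4.90, 4.91, 4.98 and 4.57 on its brightest probe. The genotype difference was 0.01 log2 units without palmitate and -0.42 with it. The second probe, for another stretch of the same transcript, read 2.20, 1.91, 2.02 and 1.75, with differences of -0.28 and -0.27. The 2 probes thus disagreed for untreated cells, by 0.30 log2 units, and with palmitate both were lower in Drp1LiKO.

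Among the HDL proteins, Apoa2 was lower in Drp1LiKO on both probes. The brightest read 8.49, 8.25, 8.42 and 8.20. Its differences were -0.25 without palmitate and -0.22 with it, and those of the second probe -0.26 and -0.20, all close to the scanner error. Over the other settings the Apoa2 difference ranged from -0.43 to -0.10 without palmitate and from -0.38 to -0.09 with it. Apoa1, which encodes the main protein of HDL and the activator of lecithin-cholesterol acyltransferase, read 4.48, 4.72, 4.43 and 4.19. It was 0.24 log2 units higher in Drp1LiKO without palmitate and differed by -0.24 with palmitate, so that no common direction was seen. Apoc1, encoding another small exchangeable apolipoprotein, read 9.13, 9.01, 9.14 and 9.03. Its differences of -0.13 and -0.11 were within the scanner error, and they became 0.04 without palmitate in the authors' value table and 0.0043 with palmitate after quantile normalization.

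The probes of Apoa5, which encodes a low-abundance activator of triglyceride hydrolysis, did not give 1 answer. The brightest read 1.52, 1.64, 1.19 and 0.97, with genotype differences of 0.13 and -0.22. The other read 0.02, 0.43, -0.30 and 0.37, with differences of 0.41 and 0.67. With palmitate the 2 probes lay 0.89 log2 units apart, the widest gap of any member, and no direction is given for the gene.

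**Figure D2:**
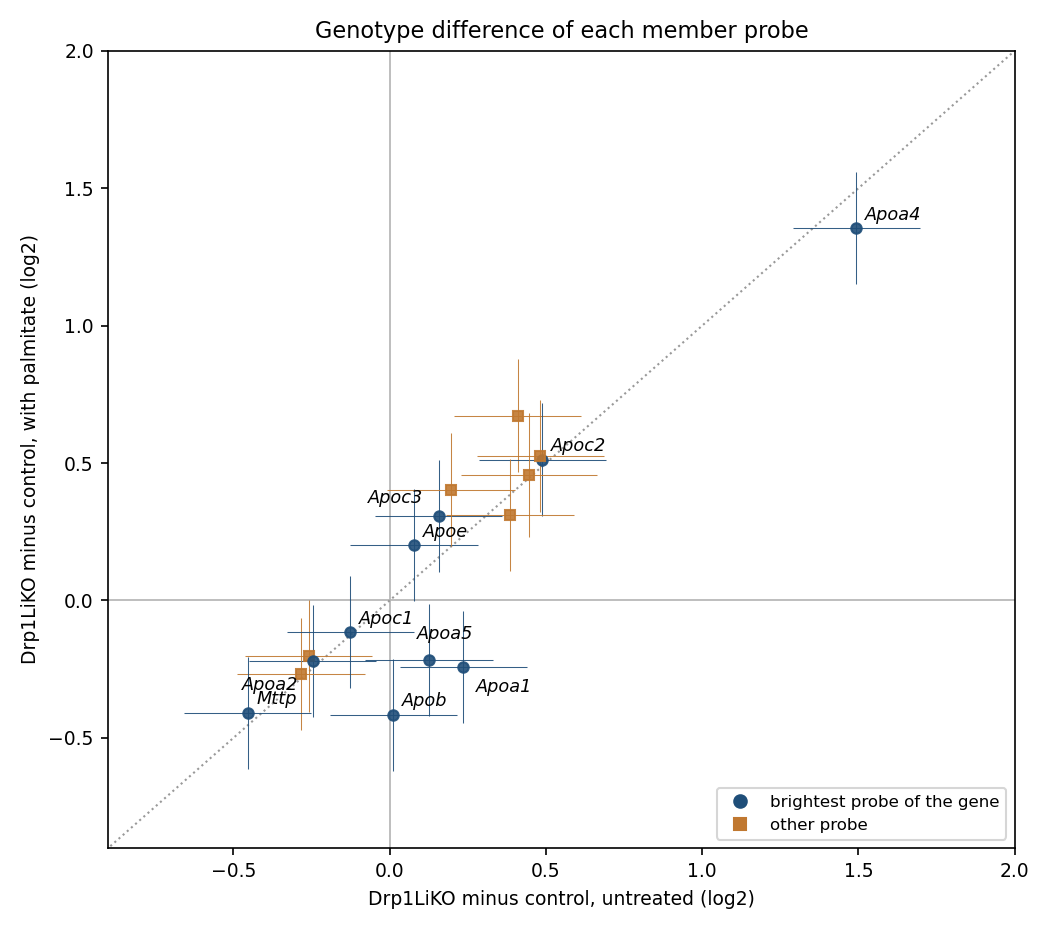
Genotype difference (Drp1LiKO minus control, log2) of each of the 17 detected member probes, without palmitate on the x axis and with palmitate on the y axis. Blue circles are the brightest probe of each gene, orange squares the other probes, bars the scanner software's error and the dotted line equality. Apoa4 lies apart at 1.49 and 1.35, Apoc2 near 0.5 on both axes and Mttp at -0.45 and -0.41.

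By size, 1 of the 10 members, Apoa4, was at least 1 log2 unit higher in untreated Drp1LiKO cells and 0 were that much lower. Over all genes, 8.84% were that much higher and 5.6% that much lower. With palmitate Apoa4 was again the 1 member past that size, against 7.25% of all genes higher. At 0.5 log2 units the count was 1 of 10 higher without palmitate, where 17.4% of all genes were, and 2 of 10 with palmitate, Apoa4 and Apoc2, where 14.8% were. No member was lower by 0.5 in either condition, against 13.7% and 10.2% of all genes. Scaling each array to its median moved the median of all genes to -0.20 and -0.19. On that scale 1 member, Mttp at -0.64, was lower by 0.5 without palmitate and 2 with it, Apob at -0.57 and Mttp at -0.57, and Apoa4 was the 1 member higher by 0.5 in each. The members were among the brighter genes, and bright genes differed less often. Of the 7214 genes at least as bright as the dimmest member, 1.93% were at least 1 log2 unit higher without palmitate and 1.36% with it. At 0.5 log2 units 6.85% of them were higher without palmitate and 5.81% with it, and 7.94% and 4.67% were lower.

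The median difference of the members was 0.10 log2 units without palmitate and -0.17 with it, beside medians of -0.02 and -0.03 over all genes. Of the members, 7 were above 0 without palmitate and 4 with it, beside 47.8% and 46.1% of all genes. With median scaling the members' medians were -0.08 and -0.32, and 3 members, Apoa1, Apoa4 and Apoc2, were above 0 without palmitate. Taking every detected probe, Apoa4, Apoc2, Apoc3 and Apoe were higher in both conditions, and Apoa2, Apoc1 and Mttp lower in both. The other 3 members, Apoa1, Apoa5 and Apob, had both signs. On the representing probe 7 of 10 members (70%) had the same sign in both conditions, and so had 78.5% of the 16611 genes above background on all 4 arrays.

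**Figure D3:**
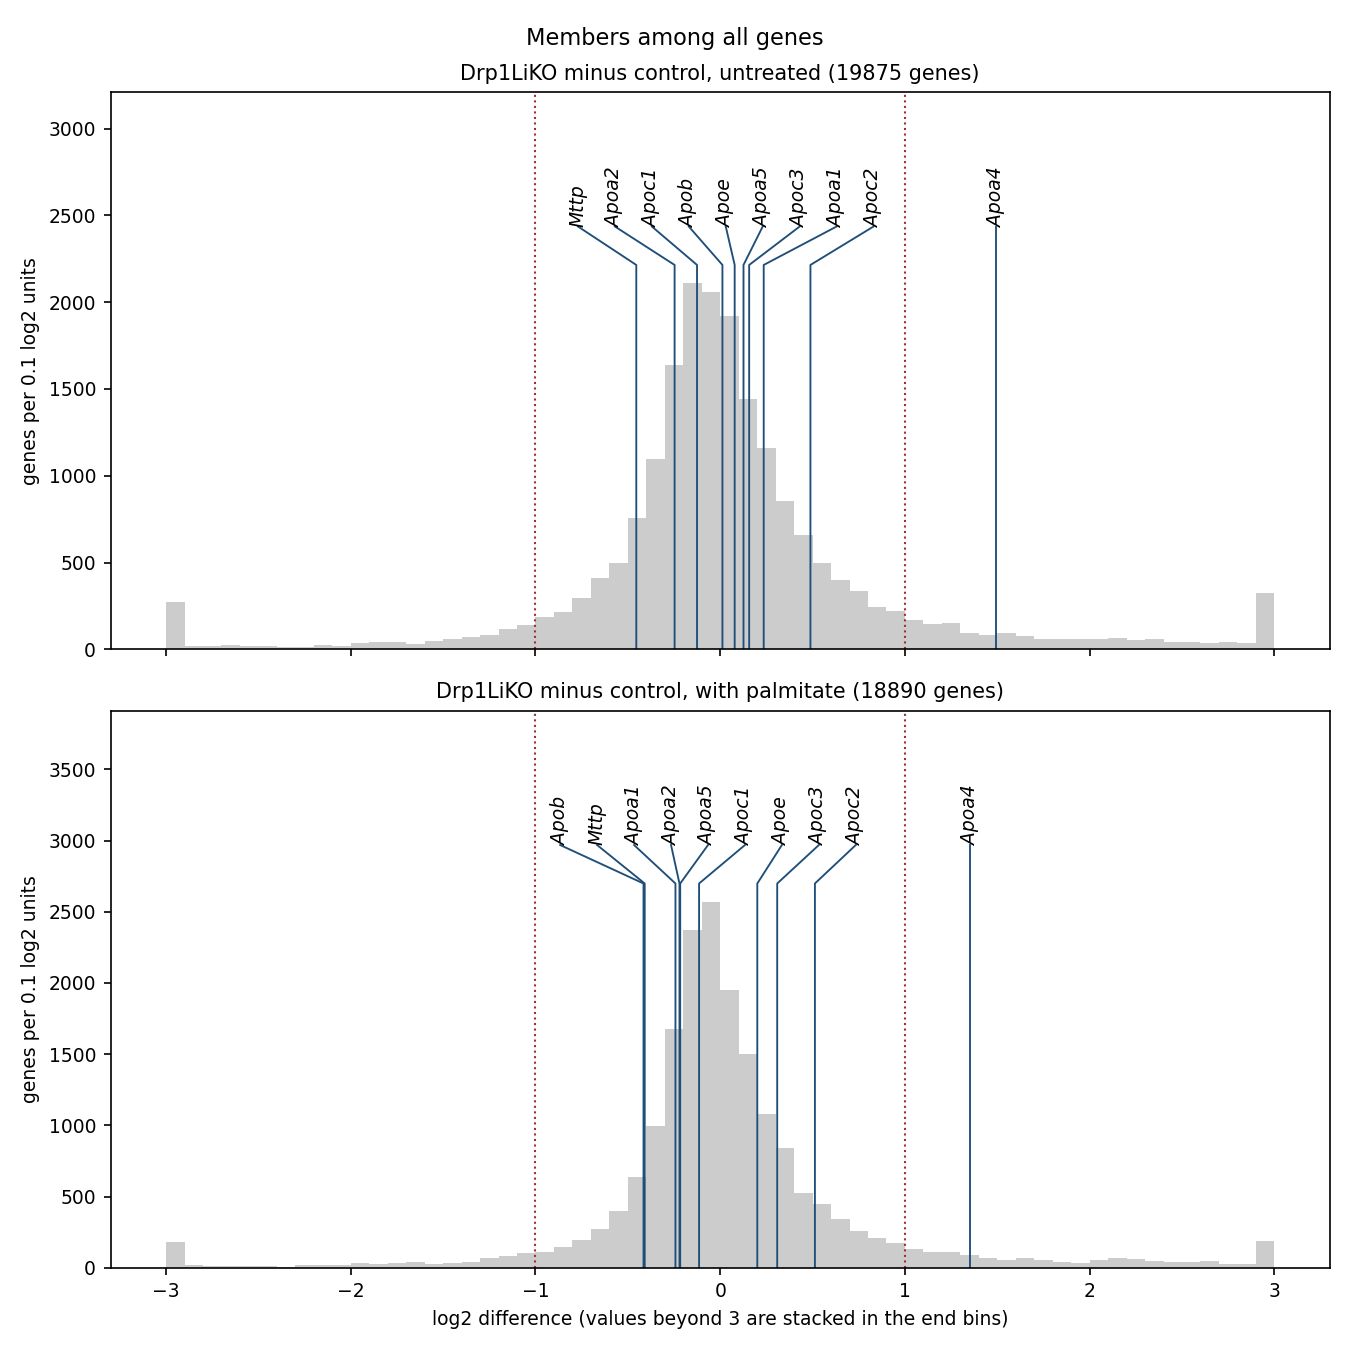
Distribution of the genotype difference (log2) over all tested genes, 19875 without palmitate above and 18890 with palmitate below, in bins of 0.1 log2 units, with a line for each member at the value of its brightest probe. Dotted red lines mark 1 log2 unit. Most members lie in the body of the distribution, and Apoa4 lies beyond the upper dotted line in both.

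The 4 arrays allow 1 test across all genes, an additive fit in limma with genotype and palmitate as terms. The palmitate term also stands for the slide, and 1 residual degree of freedom is left. That residual is the difference between the palmitate responses of the genotypes, not a spread between cultures or animals. The arrays of a genotype may also share a cell preparation, since the labels do not give the number of animals. The fit therefore cannot tell genotype from preparation, and its p-values say nothing about other preparations. It called 0 of 20615 genes for genotype (0%) and 0 for palmitate (0%) at a Benjamini-Hochberg adjusted p under 0.05. At an unadjusted p under 0.05 the genotype term had 5366 genes and the palmitate term 1989. The fitted genotype effect of Apoa4 was 1.42 log2 units (limma, adjusted p = 0.12), that of Apoc2 0.50 (adjusted p = 0.14) and that of Mttp -0.43 (adjusted p = 0.149). The smallest adjusted p of any gene for genotype was 0.12 in limma, so no gene, member or not, passed it.

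A fit that lets the spread depend on intensity, used as an alternative, borrows more from other genes. It called 25.6% of all genes for genotype, 12% higher and 13.6% lower, and 6 of the 10 members. Apoa4 (limma with trend, adjusted p = 0.000284), Apoc2 (adjusted p = 0.00292) and Apoc3 (adjusted p = 0.0247) were called higher, and Apoa2 (adjusted p = 0.00581), Mttp (adjusted p = 0.0121) and Apoc1 (adjusted p = 0.0307) lower. The calls rest on that assumption about the spread. As in every fit here, genotype and cell preparation cannot be told apart. The members were among the brighter genes, and the share called among equally bright genes was not counted. The Apoc1 differences lay within the scanner error, and its fitted effect turned sign under quantile normalization and in the authors' value table. With the filter to genes above background on all 4 arrays and no trend, 15.2% of genes were called, and of the members Apoa4, Apoc2 and Mttp, with limma adjusted p of 0.0171, 0.0398 and 0.0492.

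Palmitate was compared within each genotype. In control cells 0 of the 10 members differed by 0.5 log2 units, against 12.8% of all genes and 1.72% of those at least as bright as the dimmest member. The differences ran from -0.33 for Apoa5 to 0.09 for Apob, and 8 of the 10 were below 0, with a median of -0.09 beside 0.00 over all genes. In Drp1LiKO cells 2 members were lower by at least 0.5, Apoa1 at -0.53 and Apoa5 at -0.67, and 7.61% of all genes, or 1.07% of the equally bright ones, were that much lower. The second Apoa5 probe differed by -0.05, and the other members lay between -0.34 for Apob and 0.13 for Apoc3. Because the palmitate arrays shared a slide, these values include any difference between slides.

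The difference between the palmitate responses of the genotypes was largest in size for Apoa1, at -0.48 log2 units, and next for Apob, at -0.43. No member reached 0.5, against 21.3% of all genes and 3.69% of those at least as bright as the dimmest member. The scanner error of this difference was 0.289 log2 units. The second Apob probe gave 0.02. The Apoa4 response differed by -0.14 and that of Mttp by 0.05, both within the scanner error.

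Of the members, 7 lie in 2 clusters of neighbouring genes, in which genes close together had different values. On chromosome 9 (mm9) the probes of Apoa1, Apoc3, Apoa4 and Apoa5 span 41.57 kb. Their untreated genotype differences were 0.24, 0.16, 1.49 and 0.13 log2 units, and those with palmitate -0.24, 0.31, 1.35 and -0.22. On chromosome 7 the probes of Apoc2, Apoc4, Apoc1 and Apoe span 24.76 kb, and Apoc4, another apolipoprotein of VLDL, is not among the 10 genes. Their untreated differences were 0.49, 0.42, -0.13 and 0.08, and those with palmitate 0.51, 0.30, -0.11 and 0.20. Apoc2 and Apoc4, whose probes lie 6.58 kb apart, were both higher in Drp1LiKO.

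**Figure D4:**
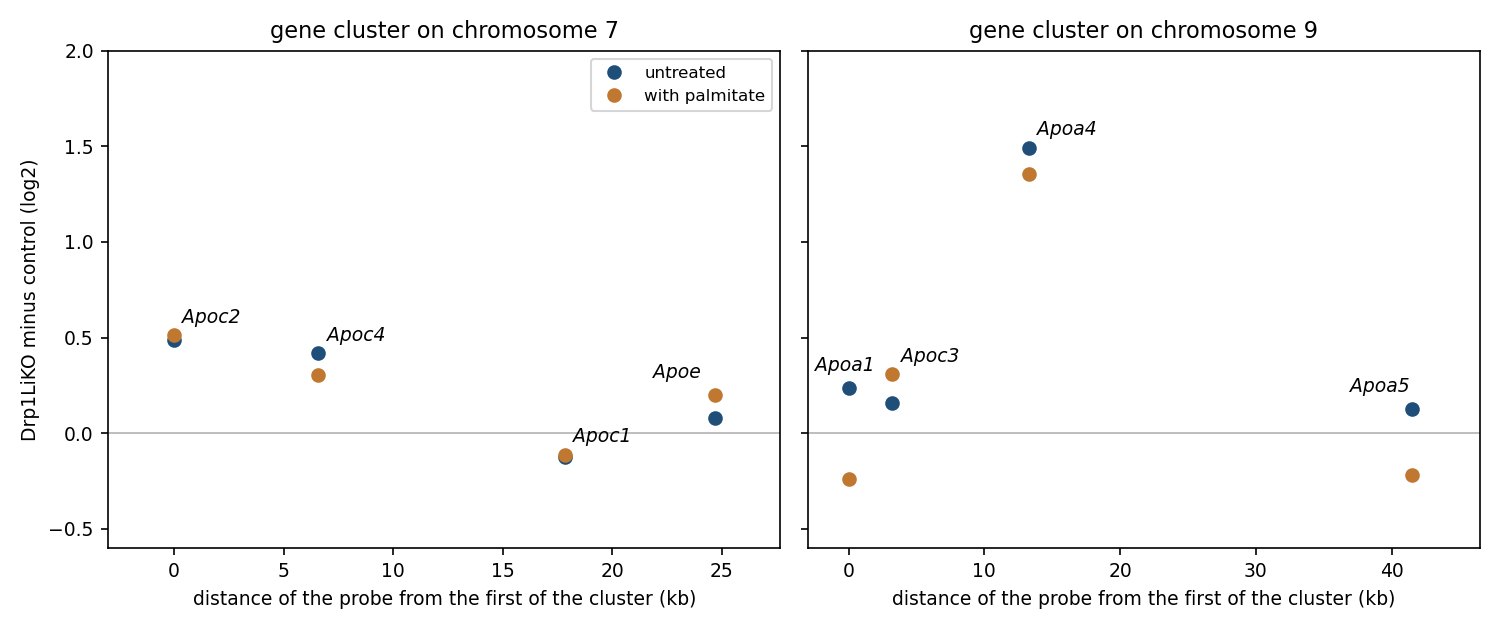
Genotype difference (Drp1LiKO minus control, log2) of the genes of each cluster against the distance of their probes from the first probe of the cluster in kb, with blue points without palmitate and orange points with palmitate. In the chromosome 9 cluster Apoa4 stands at 1.49 and 1.35 between neighbours within 0.31 of 0 on the brightest probes plotted. The other probes of Apoc3 and Apoa5, which are not plotted, reached 0.46 and 0.67 with palmitate.

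Genes of the rest of the pathway were taken from lists. None was called by the additive limma fit with a common spread, while the fit with the trend, which called 12% of all genes higher and 13.6% lower, called 4 of 9 other apolipoproteins higher and 3 lower, 2 of 14 assembly genes higher and 3 lower, and 1 of 14 transcription regulators higher and 4 lower. The trend fit also called 0 of 4 editing genes higher and 1 lower, 2 of 10 uptake genes higher and 1 lower, 3 of 8 HDL transfer genes higher and 1 lower, and 4 of 7 lipases and regulators higher and 1 lower. Those named below are the genes at least 1 log2 unit apart in the same direction in both genotype comparisons and the pair with the largest mean difference in each list, among genes with a probe above background on all 4 arrays. The array measured 9 other apolipoproteins, with Apod not above background. Saa1 and Saa2, the acute-phase apolipoproteins of HDL, were lower in Drp1LiKO, with differences of -1.56 and -1.42 log2 units without palmitate and -1.08 and -1.03 with it. Saa1 read 7.84, 6.28, 7.78 and 6.70 and Saa2 8.33, 6.92, 8.43 and 7.40, so that in both the Drp1LiKO arrays lay below the control arrays. They were the 2 genes of the list lower by at least 1 log2 unit in either condition, and 1 gene, Apof, was that much higher with palmitate. Over all genes, 5.6% were that much lower without palmitate and 4.27% with it, and 7.25% were that much higher with palmitate. The median of the list was 0.05 without palmitate and 0.25 with it.

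All 14 genes of particle assembly and secretion were measured, with medians of -0.05 and -0.08. Dgat2, which catalyses the last step of triglyceride synthesis, was higher by 1.02 and 1.13 log2 units, with levels of 3.59, 4.61, 3.54 and 4.68. Sort1, a sorting receptor of the Golgi that binds apolipoprotein B, differed by -1.06 and -0.73. In each condition the other 12 genes were within 1 log2 unit. The list of Apob mRNA editing had 4 genes measured, and the largest differences there were -0.27 and -0.88 for A1cf, the RNA-binding partner of the editing enzyme, and -0.42 and -0.30 for Syncrip.

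Of the 10 genes of receptors and uptake, the very low-density lipoprotein receptor Vldlr differed by 0.63 and 0.61 log2 units and the scavenger receptor Stab1, a gene of sinusoidal endothelial cells and macrophages, by 0.89 and 0.69. Mylip, encoding a ubiquitin ligase that degrades the low-density lipoprotein receptor, differed by 1.72 and 1.87, but its probe was above background on 1 array, so it fell outside the rule for named genes. The list medians were -0.08 and 0.10. The list of HDL lipid transfer had 8 genes measured, with Lipg not above background. Abcg1, a cholesterol exporter that macrophages also express, was the furthest apart, at 1.90 and 2.09, and Lcat, which esterifies HDL cholesterol, differed by 0.68 and 0.61. The list medians were -0.19 and 0.00.

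Of the lipases and their regulators, 7 were measured, and Angptl8 was not found on the array under that name. Lpl, encoding lipoprotein lipase, for which the Apoc2 product is the cofactor, differed by 2.09 log2 units without palmitate and 0.80 with it, from levels of -1.93, 0.16, -2.57 and -1.77. Angptl4, which encodes a secreted inhibitor of that lipase, was lower in Drp1LiKO, with differences of -1.36 and -1.18, from levels of 5.99, 4.63, 6.09 and 4.91. The other gene past 1 log2 unit was Gpihbp1, which encodes the anchor of the lipase on capillary endothelium, at 1.46 without palmitate, and it differed by 0.43 with palmitate. The list medians were 0.79 and 0.43. For Stab1, Abcg1, Lpl and Gpihbp1, genes that cells other than hepatocytes also express, the macrophage, endothelial and stellate marker sums given above were higher in the same arrays, and their part was not tested.

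Of the transcription regulators, 14 were measured, with Nr0b2 not above background and list medians of -0.11 and -0.14. Creb3l3, encoding a liver transcription factor of the endoplasmic reticulum, was 1.17 and 1.21 log2 units higher in Drp1LiKO. Its levels were 2.28, 3.46, 2.19 and 3.40, with both Drp1LiKO arrays above both control arrays. Nr1h4, encoding the bile acid receptor FXR, differed by -0.89 and -0.99. Hnf4a, encoding hepatocyte nuclear factor 4, read 3.27, 3.34, 3.16 and 3.32 and differed by 0.07 and 0.15, within the scanner error; it was chosen after its values were seen, because its motif was searched above.

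**Figure D5:**
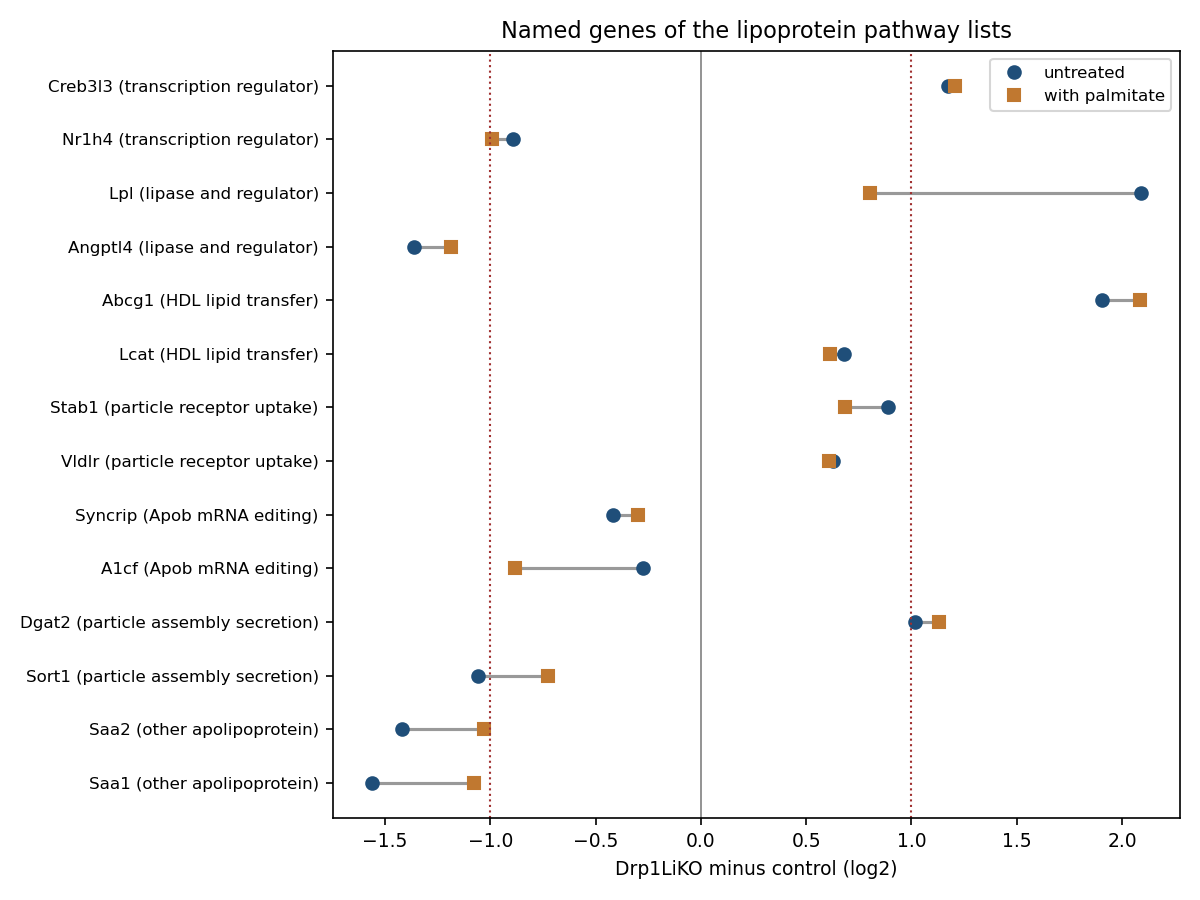
Genotype difference (Drp1LiKO minus control, log2) of the 14 named genes of the pathway lists, with blue circles without palmitate, orange squares with palmitate and dotted red lines at 1 log2 unit. Saa1, Saa2 and Angptl4 lie below the lower line in both conditions and Dgat2, Abcg1 and Creb3l3 above the upper line in both.

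Apoa4 had the widest range over the arrays among the members, and its profile over the 4 arrays was set against the other 16610 genes above background on all of them, by the Euclidean distance between centred log2 levels. The nearest were 5330406M23Rik at a distance of 0.061, Sirpa at 0.0802, Faxc at 0.0965, Jazf1 at 0.108 and LOC105247294 at 0.116 log2 units. Sirpa, encoding a receptor of myeloid cells, differed between genotypes by 1.60 and 1.36, and Jazf1 by 1.52 and 1.28. With 4 points per gene the likeness is a description of these arrays.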

How the data were processed

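Cy3-labelled RNA was hybridised to 1-colour Agilent mouse whole-genome arrays, 1 array for each of 4 groups taken from the sample labels. The scanner tables that the authors deposited give linear intensity values, background-subtracted by Feature Extraction (10.7.1.1 per the file headers, 9.5.1.1 per the submitters' processing notes). The authors also deposited an intensity table whose columns hold the same sorted values in each array, as a quantile normalization gives. It served for comparison. RNA extraction kits differ between the labels and the methods.

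From the processed signal, log2 values minus the array's 75th percentile (over non-control spots without outlier flags) were computed. A gene was represented by its brightest probe and tested where 1 or more of the arrays compared had it well above background. Differences between arrays were given with the scanner error, which rests on a preset multiplicative error of 10%. limma 3.58.1 (R 4.3.3) fitted genotype and palmitate together. Intensities depend on each probe, so levels were compared only within a probe. Precision is limited by the number of arrays.

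The members and lists were chosen with earlier results of these data known. Members and all their probes were named; of other lists, the genes at least 1 log2 unit apart the same way in both genotype comparisons on a probe above background on all arrays and the 2 with the largest mean difference; Dnm1l; and the 5 nearest profiles to the member of widest range. Alternatives were normexp (offset 50), quantile and median scaling, other percentile sets, the authors' table, the mean of all probes, other filters, and an intensity trend in limma. Promoter sequences were read from RefSeq (GRCm38.p6).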

Additional observations from a re-analysis of the deposited data

Results flagged for a closer look

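The following members had effects of opposite sign in the groups compared, in single arrays, and these differences were not tested. The genotype difference changed sign between untreated and palmitate cells for Apoa1, with a difference of -0.48 log2 units between the conditions, for Apoa5, with -0.34, and for Apob, with -0.43. The palmitate response differed in sign between genotypes for Apob, by the same -0.43, and for Apoc3 and Apoe, by 0.15 and 0.12. The second Apoa5 probe was higher in Drp1LiKO in both conditions, at 0.41 and 0.67, and the second Apob probe was lower in both, at -0.28 and -0.27, with palmitate responses of -0.18 and -0.16, so neither showed a change of sign. The untreated Apob difference of 0.0121 turned sign in 3 of 9 alternatives, and its palmitate response in control cells turned from 0.09 to -0.0473 with all probes averaged. The differences of Apoc3 and Apoe were under the scanner error of 0.289.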

How the results depend on the processing

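Each group has 1 array, so there were no replicate numbers to pair by. Genotypes were compared within a slide, and the limma fit held palmitate, which is identical with the slide, as a term. Of 450 alternative values of single members in single comparisons, 26 had the other sign, 7 of them under median scaling, and the largest main value that turned was 0.2166 in size. Of 200 alternative fitted effects, 11 had the other sign, and 11 values passed the threshold. Both totals include settings that could not turn a sign. The filters kept each member's probe and so its value, and the trend left the fitted effects as they were. Quantile normalization and the authors' table gave nearly the same values. The shares that turned are therefore no measure of robustness. The genotype effect of Apoa1 over both conditions became 0.0338 under normexp, 0.0326 under quantile normalization, 0.0329 in the authors' value table and 0.0096 with the percentile over detected probes; that of Apoa5 became 0.25 with all probes averaged, that of Apoc1 0.0222 under quantile normalization and 0.0221 in the authors' table, and that of Apoe -0.0303 under median scaling. The palmitate effect of Apoc1 became -0.0598 under quantile normalization, -0.0255 under median scaling and -0.06 in the authors' table. Median scaling moved the median of all genes to -0.20 and -0.19 for genotype and the share of higher genes past 1 log2 unit from 61.2% to 49.9% without palmitate.

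Members past 0.5 log2 units numbered 2 for genotype without palmitate under quantile normalization, the percentile over detected probes and the authors' table, where Apoc2 was added, and under median scaling, where Mttp was added as lower. Under median scaling they numbered 3 with palmitate, and the members' median without palmitate turned from 0.10 to -0.0799. They numbered 1 for the difference of responses under quantile normalization and the authors' table, and 1 for palmitate in Drp1LiKO with all probes averaged, which also moved the members' median for genotype with palmitate to 0.0567. Genes past 1 log2 unit numbered 2870, 2175, 1072, 1388 and 2227 for genotype without and with palmitate, palmitate in control and in Drp1LiKO, and the difference of responses. In the same order they numbered 1047, 684, 311, 407 and 532 under normexp, 1381, 932, 187, 429 and 296 with probes above background on every array compared, and 4679, 3932, 2889, 3529 and 4897 without a filter. limma called 1512 genes for genotype under normexp, 2525 with the filter on all arrays and 5275 with the trend, and 95 for palmitate with the trend. Under normexp the members called for genotype were Apoa4 and Apoc2, and Mttp was not called. The causes were not tested.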
